A study of Caenorhabditis elegans with 36 samples.

Results

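In worms in which *atp-2* was knocked down, 581 of the 6634 listed HDA-1 peaks lay where the list from control worms had no HDA-1 peak. These gained peaks were defined by a single comparison of positions. A peak of the *atp-2* RNAi list was taken as gained when it shared not a single base with any peak of the control list. The other 6053 peaks overlapped a control peak by 1 bp or more and are called peaks with a counterpart. That the gained peaks are absent from the control list is therefore given by their definition and is not a result. The control list was not the shorter one, with 6794 peaks that covered 13.8% of the genome against 12.5% for the *atp-2* RNAi list.

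HDA-1 is a histone deacetylase of *C. elegans*, an enzyme that removes acetyl groups from histone tails and is best known as part of repressive chromatin complexes. DVE-1 is a homeodomain protein that gathers in intestinal nuclei when mitochondria are stressed and takes part in the mitochondrial unfolded protein response, the programme that raises mitochondrial chaperones and proteases. *atp-2* encodes a subunit of the mitochondrial ATP synthase, and its knockdown is a standard way to start that response.

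The study precipitated chromatin through a GFP tag in 2 strains, one with the transgene hda-1p::hda-1::gfp and one with the transgene dve-1p::dve-1::gfp, both in a glp-4(bn2) background, and deposited 8 peak lists from 18 ChIP samples, each with an input sample. All worms were whole animals at day 1 of adulthood, reared at 20 °C on RNAi bacteria. Each protein was mapped on control RNAi (L4440, the empty vector) and after knockdown of *atp-2*, whose bacteria were added once the worms had fed on the vector clone. HDA-1 was also mapped after knockdown of *dve-1*, without and with *atp-2*, and DVE-1 after knockdown of *hda-1*, without and with *atp-2*. A list is called here by its protein and knockdown, as in HDA-1 control, DVE-1 *atp-2* or HDA-1 *dve-1/atp-2*. The glp-4(bn2) allele, a temperature-sensitive mutation that limits the germline, was shared by all groups, as were the promoter-driven transgenes, so the tagged proteins were measured from added copies. Each list came from 2 ChIP samples, or from 3 for HDA-1 *dve-1* and HDA-1 *dve-1/atp-2*. A list gives positions only, with no height, score or read count, and each condition has 1 list. No spread between samples can be had from such data, and no test between conditions was possible. Shares carry 95% Wilson intervals, which cover the counting of peaks only, and peaks are not replicate worms.

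The gained peaks that carry the results below are shown first as sequence, because a short word was in more of them than in other HDA-1 peaks. The central 200 bp of 6 of them follow, read 5′ to 3′ on the plus strand of the RefSeq sequence of WBcel235 (the same assembly as ce11). Capitals mark the GATA core, TTATCA or its reverse complement, the word bound by GATA factors such as the intestinal regulators of the worm. They lie at V:3523361-3523560 (*irg-1*, WBGene00015574, an infection response gene), V:2292463-2292662 (*nhr-115*, WBGene00003705, a nuclear hormone receptor), V:3024294-3024493 (*asp-8*, WBGene00019105, an aspartyl protease), IV:10239078-10239277 (*ech-8*, WBGene00001157, of the enoyl-CoA hydratase family), IV:9682597-9682796 (*ins-7*, WBGene00002090, an insulin-like peptide) and IV:760315-760514 (*gst-40*, WBGene00001788, a glutathione S-transferase). The first 5 lay on DVE-1 lists and held 1 or 2 matches. The last lay on HDA-1 lists alone and held 0. These 6 are examples and give no rate. Of all gained peaks on DVE-1 lists alone, 50.2% held the core in their central 200 bp. Of those on lists of both proteins, 30.8% did. The peak at *ugt-19*, also on DVE-1 lists, held 0 over its whole width. That at C04C3.14 also held 0 over its whole width, and that at *cpr-5* and *cpr-8* held 0 in its central 200 bp. No fixed rule picked the 6 from the named members, and *irg-1* and *gst-40* were chosen for display after their values were seen.
irg-1: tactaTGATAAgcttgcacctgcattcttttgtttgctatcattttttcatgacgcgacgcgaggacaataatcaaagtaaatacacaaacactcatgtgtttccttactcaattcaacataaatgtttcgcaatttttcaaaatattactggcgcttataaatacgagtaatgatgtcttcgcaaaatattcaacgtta
nhr-115: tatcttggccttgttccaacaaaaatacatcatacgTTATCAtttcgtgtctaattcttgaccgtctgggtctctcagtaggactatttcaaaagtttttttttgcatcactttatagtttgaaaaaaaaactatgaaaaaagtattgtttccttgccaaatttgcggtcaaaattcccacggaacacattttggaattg
asp-8: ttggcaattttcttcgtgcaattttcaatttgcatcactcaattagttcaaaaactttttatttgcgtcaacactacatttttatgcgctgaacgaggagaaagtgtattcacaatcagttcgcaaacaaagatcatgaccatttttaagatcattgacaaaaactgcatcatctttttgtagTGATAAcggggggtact
ech-8: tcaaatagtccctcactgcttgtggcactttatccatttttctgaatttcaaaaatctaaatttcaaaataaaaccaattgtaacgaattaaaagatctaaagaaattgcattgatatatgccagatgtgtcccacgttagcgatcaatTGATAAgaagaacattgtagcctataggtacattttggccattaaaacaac
ins-7: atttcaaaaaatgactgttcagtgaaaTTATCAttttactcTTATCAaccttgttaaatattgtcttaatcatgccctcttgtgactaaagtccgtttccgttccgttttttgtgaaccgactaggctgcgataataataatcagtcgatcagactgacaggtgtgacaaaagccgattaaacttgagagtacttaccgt
gst-40: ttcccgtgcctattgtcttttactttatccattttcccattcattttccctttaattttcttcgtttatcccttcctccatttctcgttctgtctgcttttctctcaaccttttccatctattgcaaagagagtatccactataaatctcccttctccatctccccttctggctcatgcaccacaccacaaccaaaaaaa

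Gained peaks were narrow. Their median width was 553 bp (quartiles 418 and 987 bp, range 261 to 5211 bp), against 1167 bp for peaks with a counterpart. Of the gained peaks, 248 (42.7%) were narrower than 500 bp, while 837 (13.8%) of the peaks with a counterpart were. At 2000 bp or more the counts were 27 (4.65%) and 1894 (31.3%). In bases, the gained peaks made up 455209 bp, or 3.63% of what the list covered. Most were not edges of a control peak. The median gap to the nearest control peak was 4522 bp, 127 peaks lay 10000 bp or more from one, and 2 lay nearer than 500 bp. The 3 members nearest to the limit were V:6528530-6530453 in *acs-1*, an acyl-CoA synthetase gene, with a gap of 269 bp, X:16139397-16140255 with 317 bp, and II:6252243-6253167 over *phb-2*, which encodes a mitochondrial prohibitin, with 736 bp. Just outside it, the peak over *folt-1* (V:11142395-11143432), a folate transporter gene, shared 88 bp with a control peak. The next 2 shared 231 and 256 bp. Of the 6053 peaks with a counterpart, 313 were covered by control peaks over less than 50% of their width.

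Most gained HDA-1 peaks lay on a DVE-1 peak of the same knockdown, a somewhat smaller share than of other HDA-1 peaks. Of the 581, 448 (77.1%, interval 73.5 to 80.3%) overlapped a peak of DVE-1 *atp-2*. The DVE-1 list from control worms reached 145 of them (25.0%, 21.6 to 28.6%). For peaks with a counterpart, the same lists reached 83.5% and 62.7%, and for all 6634 HDA-1 *atp-2* peaks 83.0% and 59.4%. DVE-1 *hda-1* reached 368 gained peaks (63.3%, 59.3 to 67.2%) and DVE-1 *hda-1/atp-2* 443 (76.2%, 72.6 to 79.5%). Over all 6634 peaks those shares were 78.5% and 84.3%. The overlap was seldom marginal. Of the 448 peaks on DVE-1 *atp-2*, 319 were covered from end to end.

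The HDA-1 lists made after *dve-1* knockdown held fewer of them. HDA-1 *dve-1/atp-2* reached 261 gained peaks (44.9%, 40.9 to 49.0%) and HDA-1 *dve-1* 154 (26.5%, 23.1 to 30.2%). Peaks with a counterpart were on those lists in 92.2% and 85.1% of cases, and all 6634 peaks in 88.0% and 80.0%. Both lists held more peaks than any other (9862 and 8512), with narrower ones (medians of 710.5 and 733 bp). They were also the lists made from 3 samples. Gained peaks were chosen by absence from an HDA-1 list, and the others by presence on it. A lower share on other HDA-1 lists is therefore partly built in. The study also reports that *dve-1* RNAi lowered the level of HDA-1 protein. The part of each of these in the shares was not tested. A gap to the peaks with a counterpart was also seen among narrow peaks. Under 500 bp, HDA-1 *dve-1/atp-2* held 44.8% of gained peaks and 84.5% of those with a counterpart. At that width DVE-1 *atp-2* held 70.2% and 58.3%, the gained peaks now being the higher.

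**Figure D1:**
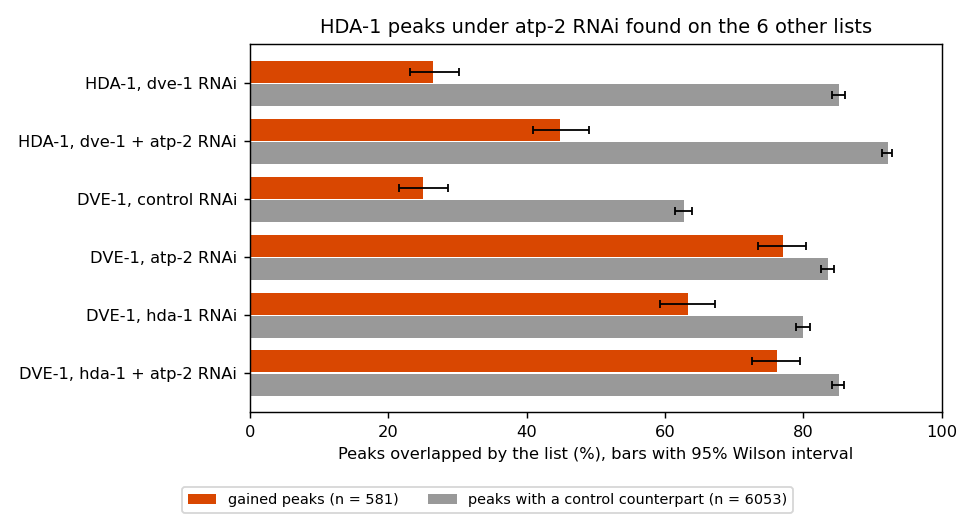
Share of HDA-1 *atp-2* peaks (x axis, %) that overlapped a peak of each of the 6 other lists (y axis), for the 581 gained peaks in orange and the 6053 peaks with a control counterpart in grey, with 95% Wilson intervals. The gained peaks reach 77.1% on DVE-1 *atp-2* and 25.0% on DVE-1 control.

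These shares rest on lists of unequal length. When every list was reduced to its 4279 widest peaks, the length of the DVE-1 control list, DVE-1 *atp-2* held 43.5% of the gained peaks. DVE-1 *hda-1/atp-2* and DVE-1 *hda-1* then held 33.7% and 30.8%, and DVE-1 control 25.0%. HDA-1 *dve-1/atp-2* and HDA-1 *dve-1* held 13.6% and 8.61%. The highest share was still that of DVE-1 *atp-2*.

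The same places can be followed through each pair of lists without and with *atp-2* knockdown. In the pair of DVE-1 control and DVE-1 *atp-2*, 312 gained peaks were on the second alone, 136 on both, 9 on the first alone and 124 on neither. A DVE-1 peak thus appeared with *atp-2* knockdown at 53.7% of the gained peaks, compared with 22.0% of the peaks with a counterpart. Only places off DVE-1 control could do so, and fewer gained peaks were on that list (25.0% against 62.7%). Among places off it, 312 gained ones were on DVE-1 *atp-2* and 124 were not, against 1330 and 930 with a counterpart. The contrast was then smaller. In the pair of DVE-1 *hda-1* and DVE-1 *hda-1/atp-2* the same counts were 87, 356, 12 and 126, so more of these places were listed for DVE-1 in both. In the pair of HDA-1 *dve-1* and HDA-1 *dve-1/atp-2*, 113 were on the second alone, 148 on both, 6 on the first alone and 314 on neither. On the second alone were 15.0% and 19.4% of gained peaks in these 2 pairs, against 6.51% and 7.96% of peaks with a counterpart. Counted only over places off the first list, the 2 pairs differed. For DVE-1 after *hda-1* knockdown, 87 gained places were on the second and 126 were not, against 394 and 822 with a counterpart. For HDA-1 after *dve-1* knockdown the counts were 113 and 314, against 482 and 419, so gained places then appeared less often. The choice of gained peaks by absence from an HDA-1 list enters this pair. In all 3 pairs the places listed without *atp-2* knockdown alone were few, between 6 and 12. They were 1.55, 2.07 and 1.03% of gained peaks in the order given. For peaks with a counterpart the shares were similarly low, at 1.12, 1.35 and 0.925%.

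**Figure D2:**
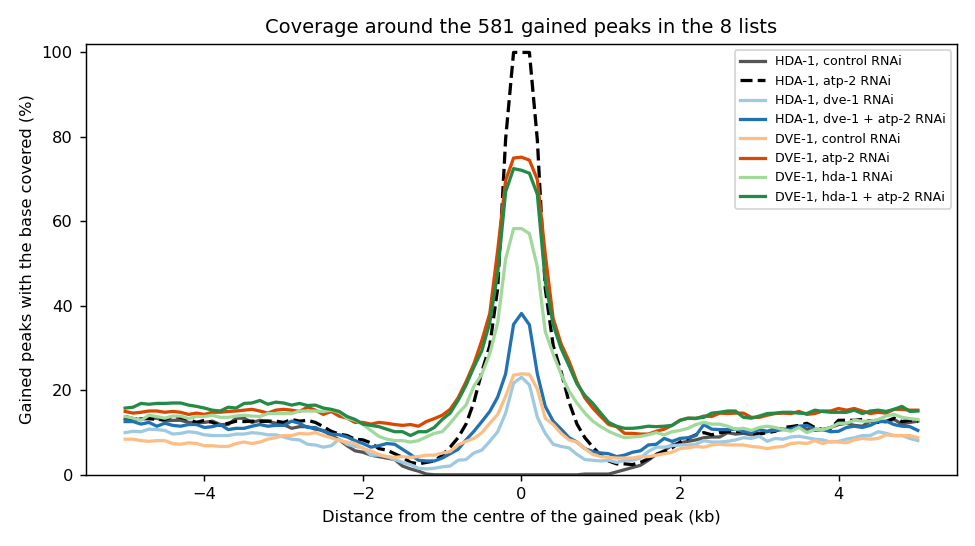
Percentage of the 581 gained peaks (y axis) whose base at a given distance from the peak's centre (x axis, kb) was covered by a peak of each of the 8 lists. At the centre DVE-1 *atp-2* covers 75.2% and HDA-1 *dve-1/atp-2* 38.2%, and at 5000 bp to the left they cover 15.0% and 12.6%.

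Coverage by DVE-1 was centred on the gained peaks. At their middle, DVE-1 *atp-2* covered 75.2%, DVE-1 *hda-1/atp-2* 72.1% and DVE-1 *hda-1* 58.3%. At 1000 bp to the right these fell to 13.8%, 14.6% and 11.4%, close to their values at 5000 bp (15.3%, 15.1% and 13.1%). The centring was not particular to DVE-1. HDA-1 *dve-1/atp-2* covered 38.2% at the middle, 5.16% at 1000 bp and 10.5% at 5000 bp to the right. For HDA-1 *dve-1* these were 23.1%, 3.27% and 8.09%. Peaks with a counterpart were not profiled in this way. The HDA-1 control list was at 0% at the middle, as the definition requires, and at 12.7% at 5000 bp to the right.

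By the lists they appeared on, the gained peaks fell into 4 classes. The largest, 279 peaks (48.0%), lay on DVE-1 lists and on neither of the 2 HDA-1 lists made after *dve-1* knockdown. Another 211 (36.3%) lay on lists of both proteins, 56 (9.64%) on HDA-1 lists alone and 35 (6.02%) on no other list. Among peaks with a counterpart, the class on DVE-1 lists alone made up 6.28% and the class on lists of both proteins 84.0%. Of the 64 possible combinations of the 6 lists, 36 occurred. The most frequent was DVE-1 *atp-2*, DVE-1 *hda-1* and DVE-1 *hda-1/atp-2* with no further list, at 131 gained peaks (22.5%). The same combination held 147 (2.43%) of the peaks with a counterpart. All 6 lists held 26 gained peaks (4.48%), but 3189 (52.7%) of those with a counterpart. These comparisons involve HDA-1 lists, so the choice of gained peaks by absence from an HDA-1 list enters them too.

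HDA-1 *dve-1/atp-2* held more of the gained peaks that DVE-1 lacked. It held 175 of the 448 on DVE-1 *atp-2* (39.1%, 34.7 to 43.7%), and 56 of the 91 on no DVE-1 list (61.5%, 51.3 to 70.9%). Of the 312 on DVE-1 *atp-2* but not DVE-1 control it held 33.7% (28.6 to 39.1%). Of the 136 on both it held 51.5% (43.1 to 59.7%). It held 92.2% of all peaks with a counterpart and 88.0% of all 6634. Of peaks with a counterpart on no DVE-1 list, 549 were on an HDA-1 list made after *dve-1* knockdown and 39 were not. Of those on a DVE-1 list, 5085 were and 380 were not. The choice by absence from an HDA-1 list and the reported fall in HDA-1 protein apply here too. Their part in the split was not tested.

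**Figure D3:**
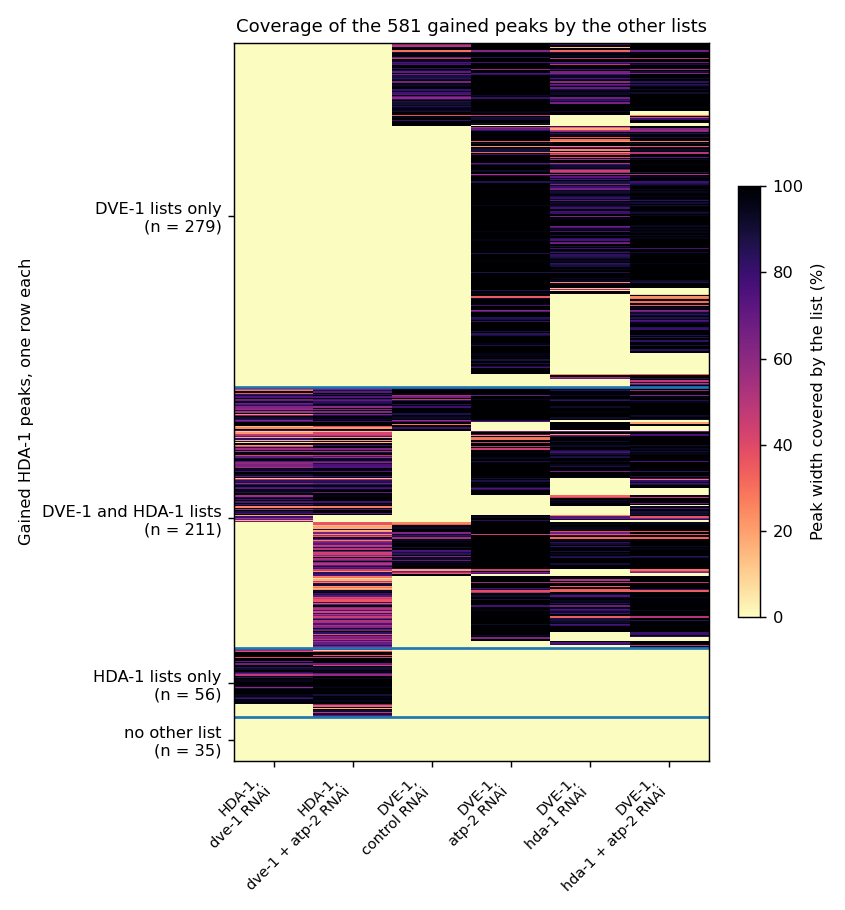
Each row is 1 of the 581 gained peaks, each column 1 of the 6 other lists, and the colour gives the percentage of the peak's width that the list covered, from 0 (pale) to 100 (black). Blue lines separate the 4 classes of 279, 211, 56 and 35 peaks, and most DVE-1 cells that are not empty are close to black.

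The widest gained peaks were DVE-1 peaks as well. All 10 widest, between 2811 and 5211 bp, lay on DVE-1 *atp-2*, DVE-1 *hda-1* and DVE-1 *hda-1/atp-2*, and none on HDA-1 *dve-1*. Of all gained peaks these lists held 77.1, 63.3, 76.2 and 26.5%. Of gained peaks of 1000 bp or more they held 83.1, 72.5, 84.5 and 25.4%. Peaks with a counterpart of that width were on the same lists in 89.4, 89.7, 91.9 and 89.5% of cases. The first, III:5731246-5736456, reached into 3 genes, among them B0244.17, and of its 5211 bp those 3 lists covered 5211, 4208 and 5144 bp. The second, IV:4484598-4488391, ran across the 5′ end of *trx-3*, a thioredoxin gene. Its 3794 bp were covered over 3725, 3779 and 3794 bp by the same lists and over 1050 bp by HDA-1 *dve-1/atp-2*. The third spanned *ugt-21* (IV:9499371-9502800), for a UDP-glucuronosyltransferase. Others lay at *nep-17* (II:13506194-13509059), a neprilysin-like peptidase gene, and over *glna-1* (II:14731543-14734373), for glutaminase. One lay 3333 bp upstream of *nob-1* (III:12087649-12090800), a posterior Hox gene. There DVE-1 was already listed in control worms over 3076 of the 3152 bp.

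A few members stood apart from this pattern. *epic-2* (IV:1720619-1723045) carried the widest gained peak present in all 6 other lists, and each of them covered its 2427 bp in full. Its GC content of 60.2% was the highest of all gained peaks, whose median was 36.0%. *thn-2* (IV:12382784-12384346), of the thaumatin family, was also in all 6, with 694 of 1563 bp covered by HDA-1 *dve-1* and 1563 bp by DVE-1 *atp-2*. At *clec-1* (V:5699907-5701433), a C-type lectin gene, and *col-140* (V:5835888-5836864), a cuticle collagen gene, every other list but DVE-1 *atp-2* held a peak. The widest gained peak on no other list was II:2054703-2055994, 1292 bp wide, with its middle in an intron of F07E5.5. Another, of 1122 bp, had its middle in an exon of *eps-8*, which encodes an actin regulator (IV:14895959-14897080). Untagged worms were not among the samples used here, so regions that any GFP precipitation would list cannot be told apart from regions of HDA-1.

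**Figure D4:**
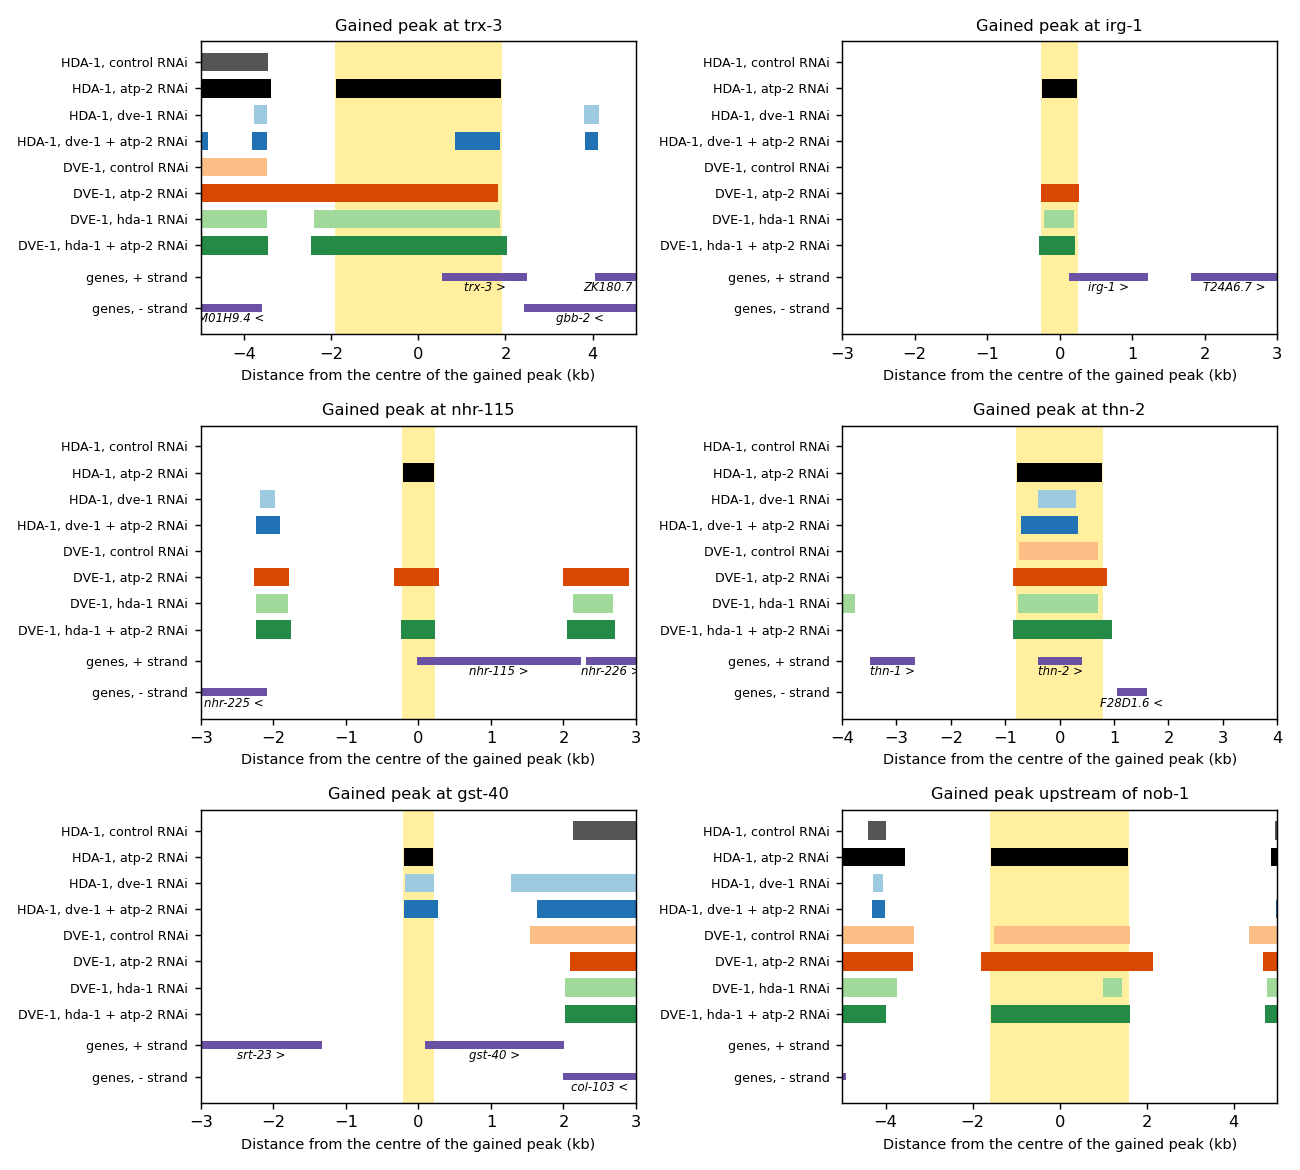
Peaks of the 8 lists (coloured bars) and protein-coding genes (purple, arrows give the strand) around 6 gained peaks, with distance from the centre of the gained peak in kb on the x axis and the gained peak shaded. At *irg-1* and *nhr-115* the shaded peak has DVE-1 bars and no other HDA-1 bar, at *gst-40* HDA-1 bars and no DVE-1 bar, and at *thn-2* a bar in every list but the HDA-1 control list.

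Gained peaks lay at fewer gene starts than other HDA-1 peaks. An annotated 5′ end of a protein-coding gene was within 500 bp of 298 of them (51.3%, 47.2 to 55.3%). The share was 67.0% for peaks with a counterpart and 65.7% for all 6634. Wider peaks reach a 5′ end more easily, and by the position of the middle base alone the shares were nearly the same, 40.1% and 41.4% within 500 bp of a 5′ end. Of the other gained middles, 30.6% fell between genes, 17.9% in introns and 11.4% in exons. Within the classes, peaks on DVE-1 lists alone were at a 5′ end in 60.2% of cases (54.4 to 65.8%), those on lists of both proteins in 48.3% (41.7 to 55.1%) and those on HDA-1 lists alone in 28.6% (18.4 to 41.5%).

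Chromosomes IV and V had the highest shares of gained peaks. Of their HDA-1 *atp-2* peaks, 12.0% (10.2 to 14.2%) and 11.8% (10.1 to 13.7%) were gained. On X the share was 5.53% (4.43 to 6.89%), and on I, II and III it was 7.30, 8.03 and 8.25%. With each chromosome cut into 3 equal parts, the outer parts held 417 gained peaks (71.8%, 68.0 to 75.3%), compared with 60.3% of peaks with a counterpart and 61.3% of all 6634. On X itself the outer parts held 64.9% of the gained peaks and 65.8% of all peaks, and on I, II and III between 77.4% and 78.9% of the gained ones. Gained peaks were mostly isolated, with a median of 51365 bp to the next one, although 62 had a neighbour within 5000 bp.

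Gained peaks held the GATA core in their central stretch more often than peaks with a counterpart did, and 8 short words were searched in all. In the central 200 bp, TTATCA or its complement occurred in 213 gained peaks (36.7%, 32.8 to 40.7%). It occurred in 21.0% (20.0 to 22.1%) of peaks with a counterpart, 22.4% of all 6634 and 17.8% of all windows of 200 bp in the 6 chromosomes. The longer form CTTATCA, which contains the core, gave 20.3% (17.2 to 23.8%) against 6.49% and 3.44% of windows. The repeat GAGAGAGA was in 4.65% of gained peaks and 5.19% of all 6634, and CTGCGTCTC, a word read from a motif logo of the study, in 4.99% and 5.03%. The E-box CACGTG was in 5.85% of gained peaks and 4.58% of those with a counterpart, and the cAMP response element TGACGTCA in 2.58% and 1.37%. Both strands were searched for every word. Over whole peaks the GATA core was in 68.2% of gained peaks and 70.6% of those with a counterpart, which are wider. Per kilobase the counts were 2.13 and 1.33. Among peaks under 1000 bp wide, the central share was 43.1% (38.5 to 47.7%) for gained peaks and 22.8% (21.2 to 24.4%) for those with a counterpart. A match is a description of the sequence and not evidence of a bound site.

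The GATA core varied with the lists a gained peak was on. It was in 50.2% (44.3 to 56.0%) of gained peaks on DVE-1 lists alone, 30.8% (25.0 to 37.3%) of those on lists of both proteins and 17.1% (8.10 to 32.7%) of those on no other list. On HDA-1 lists alone, 2 of 56 held it (3.57%, 0.985 to 12.1%). These last peaks also had more G and C, with a median of 41.9% against 34.0% in the class on DVE-1 lists alone. Among gained peaks with a GC content from 32 to under 40%, the shares were 49.4% (86 of 174), 32.1% (42 of 131) and, for HDA-1 lists alone, 0 of 17, which allows a share of up to 17.6% when the limit for a count of 0 is set at 3 counts of the total. The same order was seen in peaks with a counterpart, at 42.4% (37.5 to 47.4%), 20.9% (19.8 to 22.0%) and 7.83% (5.87 to 10.4%). Within the class on DVE-1 lists alone, gained peaks and peaks with a counterpart thus had overlapping intervals, while in the class on lists of both proteins the interval of the gained peaks lay above. The class on DVE-1 lists alone made up 48.0% of the gained peaks and 6.28% of the others.

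**Figure D5:**
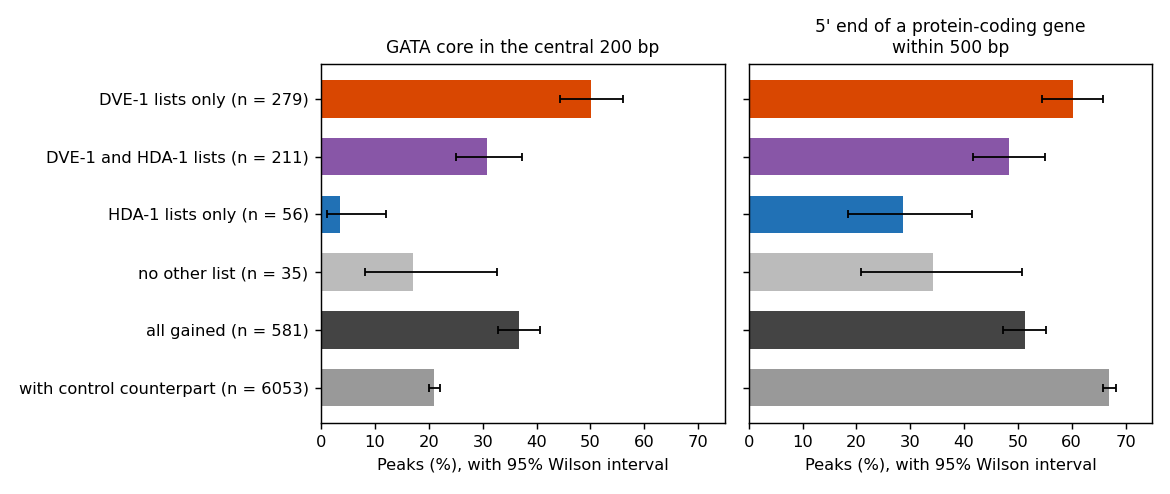
Share of peaks (x axis, %, with 95% Wilson intervals) with the GATA core in the central 200 bp (left) and with a protein-coding 5′ end within 500 bp (right), for the 4 classes of gained peaks, all 581 gained peaks and the 6053 peaks with a counterpart. On DVE-1 lists alone the values are 50.2% and 60.2%, on HDA-1 lists alone 3.57% and 28.6%.

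Genes that deal with foreign compounds had gained peaks at a higher share than genes in general. In all, 354 protein-coding genes (1.77% of 19973) had a gained peak within 500 bp of their 5′ end. None of these had a control HDA-1 peak there, which follows largely from the definition. Only 14 gained peaks had a control peak nearer than 1000 bp. Detoxification genes, the cytochrome P450, UDP-glucuronosyltransferase, glutathione S-transferase and exporter families, counted 15 of 208 (7.21%, 4.42 to 11.6%). They were *cyp-13A6*, *cyp-13A7*, *cyp-33C2*, *cyp-33D1*, *cyp-33E1*, *cyp-33E3*, *cyp-34A6*, *ugt-12*, *ugt-19*, *ugt-21*, *ugt-29*, *ugt-31*, *ugt-48*, *gst-40* and *pgp-8*. Their 14 peaks, of which one is shared by *cyp-13A6* and *cyp-13A7* (II:9802659-9803628), were on DVE-1 *atp-2* in 13 cases and on DVE-1 control in 1, that at *ugt-12*. Of all gained peaks, 77.1% were on DVE-1 *atp-2* and 25.0% on DVE-1 control. The exception was *gst-40* (IV:760215-760614), shown above, whose 400 bp were covered over 381 and 400 bp by HDA-1 *dve-1* and HDA-1 *dve-1/atp-2* and by no DVE-1 list. Any HDA-1 *atp-2* peak was found at 44.7% of these genes and at 31.3% of all protein-coding genes.

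F-box and MATH genes, many of which encode adaptors of ubiquitin ligases, counted 16 of 395 (4.05%, 2.51 to 6.48%), against 1.77% of all genes. All of their 15 peaks were on DVE-1 *atp-2* and none on HDA-1 *dve-1*, lists that held 77.1% and 26.5% of all gained peaks. On the left arm of chromosome III, between positions 936045 and 1349705, 8 gained peaks lay at *fbxa* genes, among 36 *fbxa* genes in that stretch. The limits of the stretch were set by the outermost of these peaks. All 8 were on DVE-1 *atp-2* and DVE-1 *hda-1*, and 2 on HDA-1 *dve-1/atp-2*. The widest, at *fbxa-59* (III:943473-944574), had 962 of its 1102 bp on the DVE-1 control list.

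Nuclear hormone receptor genes, a family much expanded in nematodes, counted 9 of 269 (3.35%, 1.77 to 6.24%), an interval that starts at the 1.77% of all genes. All 9 peaks were on DVE-1 *atp-2*, 3 on DVE-1 *hda-1* and 1, at *nhr-123*, on DVE-1 control. These lists held 77.1%, 63.3% and 25.0% of all gained peaks. The peak at *nhr-115* (V:2292349-2292777) was covered over all its 429 bp by DVE-1 *atp-2* and DVE-1 *hda-1/atp-2*, and by no other list. At *nhr-43* (IV:11897371-11899646), the widest, 2276 bp were covered by each of DVE-1 *atp-2*, DVE-1 *hda-1* and DVE-1 *hda-1/atp-2*, 488 bp by HDA-1 *dve-1* and 932 bp by HDA-1 *dve-1/atp-2*.

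Antimicrobial genes, such as lysozymes and C-type lectins, counted 8 of 341 (2.35%, 1.19 to 4.56%), close to the 1.77% of all genes. Among them were *irg-1* and *irg-3*, named here after their values were seen. The peak at *irg-1* (V:3523224-3523697, 474 bp) was covered over 474, 424 and 451 bp by DVE-1 *atp-2*, DVE-1 *hda-1* and DVE-1 *hda-1/atp-2*, and that at *irg-3* (V:2592193-2592731, 539 bp) over 531, 539 and 539 bp. *lys-4* (IV:11623269-11624123), a lysozyme gene, was covered over 855 bp by each of the same lists. At *clec-87*, in contrast, the gained peak was on both HDA-1 lists with *dve-1* knockdown and on no DVE-1 list. Cuticle collagens (3 of 169) and insulin-like and neuropeptide genes (*ins-7*, 1 of 141) added few, and chemoreceptors were at 8 of 1309 (0.611%), below the share of all genes.

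Among the 29 listed genes best known from the mitochondrial stress response, none had a gained peak within 500 bp of the 5′ end. The count was 0 of 29 in that list, which by the same limit of 3 counts allows a share of up to 10.3%. With 1.77% of all genes having such a peak, lists this small were near that share at a count of 0. HDA-1 was listed at 24 of the 29 already in control worms. A gene with a control peak there could hardly count, as none of the 354 genes with a gained peak had one. The limit of 10.3% is taken over all 29 genes and does not allow for this. The count was also 0 of 42 for nuclear-encoded oxidative phosphorylation, 0 of 78 and 0 of 70 for cytosolic and mitochondrial ribosomal proteins, 0 of 19 for histone deacetylase complexes, 0 of 13 for the p38 immune pathway, 0 of 22 for heat shock proteins and 0 of 72 for histones. Outside these 500 bp, gained peaks did overlap genes of these lists. They lay over *phb-2*, as above, over *met-2* (III:8378293-8378971), for a histone methyltransferase, and at 2 places in introns of *tir-1* (III:3881058-3882129 and III:3896360-3897421), which encodes an adaptor upstream of the p38 kinase. Of 33 proteasome genes, *pas-7*, an alpha subunit of the core particle, had one (II:10098550-10100373), and of 69 lipid enzymes *lipl-1*, a lysosomal lipase (V:12919706-12920122). HDA-1 was listed in control worms at 73 of the 78 cytosolic ribosomal protein genes and 29 of the 33 proteasome genes. It was also listed at 34 of the 42 oxidative phosphorylation genes. Low counts in such lists were thus largely set by the definition.

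The study also lists genes as raised in RNA after *atp-2* knockdown, from separate RNA sequencing, and those lists were taken as given. Of the genes found in the annotation, 40 of 789 (5.07%, 3.74 to 6.83%) had a gained peak at the 5′ end, against 1.77% of all genes. Among those it lists as dependent on *dve-1* the count was 22 (10.2%, 6.82 to 14.9%), and among those dependent on *hda-1* 18 of 278 (6.47%). Genes on these lists also more often had an HDA-1 peak in control worms (52.1% of the 789, against 31.8% of all genes). All 22 peaks at *dve-1*-dependent genes were on DVE-1 *atp-2*, 3 of them on DVE-1 control and 1 on HDA-1 *dve-1*, against 77.1%, 25.0% and 26.5% of all gained peaks. These gene lists were chosen by the study itself and are not independent of it.

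Of the genes listed as dependent on both proteins, 10 of 139 (7.19%, 3.95 to 12.7%) had such a peak, against 1.77% of all genes. All 10 peaks lay on DVE-1 *atp-2* and DVE-1 *hda-1/atp-2*, 6 on DVE-1 *hda-1*, 4 on HDA-1 *dve-1/atp-2* and 0 on DVE-1 control or HDA-1 *dve-1*. Over all gained peaks the shares on these lists were 77.1, 76.2, 63.3, 44.9, 25.0 and 26.5% in the same order. The widest, V:1133172-1135470, lay across the 5′ ends of *cpr-5* and *cpr-8*, a divergent pair of cathepsin B-like protease genes, and its 2299 bp were covered in full by 3 DVE-1 lists. C04C3.14 (IV:3394874-3396780) had 1907 bp covered by DVE-1 *atp-2*, 990 bp by DVE-1 *hda-1* and 314 bp by HDA-1 *dve-1/atp-2*. At M01G12.9 and *mff-2*, a gene for a mitochondrial fission factor, HDA-1 *dve-1/atp-2* covered 265 and 291 bp. At *nhr-210* (V:519276-519883), *asp-8* (V:3024154-3024633) and *nhr-115*, the peak was on DVE-1 *atp-2* and DVE-1 *hda-1/atp-2* and on no other list. At *ech-8* (IV:10238942-10239414) and Y105C5B.15 (IV:15951644-15952050) the peak was also on DVE-1 *hda-1*. *ugt-19* (IV:6079814-6080285) had 472 bp covered by DVE-1 *atp-2*, 436 bp by DVE-1 *hda-1* and 251 bp by HDA-1 *dve-1/atp-2*. A different case was *ppgn-1* (IV:2348909-2349563), listed as dependent on *hda-1*, whose gained peak of 655 bp was on no other list. That peak reached the 5′ end of the gene, which was not among the 29 listed for the mitochondrial stress response.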

How the data were processed

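HDA-1-GFP and DVE-1-GFP ChIP was sequenced from whole worms. Per the labels and the methods, the authors trimmed reads with Trim Galore, mapped them to ce11 with BWA 0.7.13-r1126, removed duplicates with Picard 2.17.6 and called broad peaks with MACS2 2.1.1. The deposited lists hold 1 set of peak positions per condition and no other values. Whether input served as control, and how samples were combined, is not given in the sources used here. The lists carry no read depth.

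Overlaps of 1 bp or more were counted (Python 3.11.15, numpy 2.4.6, scipy 1.17.1, plots with matplotlib 3.10.9), and 56 of 56 counts between lists equalled those of bedtools 2.31.1. The code was tested on simulated data. Genes came from Ensembl release 115 of WBcel235 and sequence from the RefSeq assembly of that build, whose chromosome lengths held every peak. Words were searched on both strands of the central 200 bp. Named members were the 10 widest, the 5 widest of 4 combinations of lists, those at listed genes, those at genes dependent on both proteins and the 3 nearest to the limit on each side. Others are marked. The members and lists were chosen with earlier results of these data known.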

Additional observations from a re-analysis of the deposited data

How the results depend on the processing

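No paired analysis was possible because each condition has 1 list of peaks and the columns carry no replicate numbers. For the same reason no sample could be left out, and a stricter peak threshold could not be set on lists without scores. Of 55 alternative values, 26 stayed near the value reported. For a share this meant within its interval, and for the number of gained peaks, which has no interval, within a fixed fold range. These included all 8 values for gained peaks with no control peak within 500 bp, and all 8 motif shares within a GC content of 32 to under 40%, a setting chosen after seeing the data. The number of gained peaks was 894 when peaks covered over less than 50% by control peaks were counted and 333 for peaks of 500 bp or more. With at least 50% of the gained peak covered, the shares were 22.7% for HDA-1 under dve-1 RNAi, 35.6% with dve-1 and atp-2 RNAi, 57.8% for DVE-1 under hda-1 RNAi and 71.9% with hda-1 and atp-2 RNAi. With all lists at 4279 peaks they were 8.61, 13.6, 30.8 and 33.7% for the same lists, and 43.5% for DVE-1 under atp-2 RNAi. For gained peaks of 500 bp or more they were 21.9% for HDA-1 under dve-1 RNAi, and 30.0, 82.3, 71.5 and 82.0% for DVE-1 under control, atp-2, hda-1, and hda-1 with atp-2 RNAi. The share at a 5′ end was 46.8% within 250 bp, 58.3% within 1000 bp and 62.3% with genes of every class except piRNA genes. Over whole peaks the words were found more often because more sequence was searched, with 68.2% for the GATA core, 43.4% for its extended form, 8.43% for GAGAGAGA, 9.81% for CTGCGTCTC, 16.5% for the E-box, 6.37% for the CRE, 34.6% for the heat shock element core and 49.2% for a run of T. In peaks under 1000 bp, also chosen after seeing the data, the GATA forms were at 43.1% and 25.3%. The cause of the other changes was not tested. A peak near the caller's limit can be on one list and off another with little change in signal, which positions alone cannot show.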

Other observations

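The opposite change was the larger one by count. Of the 6794 HDA-1 peaks of control worms, 878 (12.9%) overlapped no HDA-1 *atp-2* peak, against the 581 that were gained.

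Genes for small RNAs differed in how often a gained peak lay within 500 bp of their 5′ end. Transfer RNA genes had one at 3 of 612 (0.490%), although 481 of them (78.6%) had some HDA-1 *atp-2* peak. Small nuclear RNA genes had one at 7 of 129 (5.43%). Of 2128 pseudogenes, 36 (1.69%) had one, a share close to the 1.77% of protein-coding genes, while 8.88% of pseudogenes and 31.3% of protein-coding genes had some HDA-1 *atp-2* peak.

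The heat shock element core TTCNNGAA was spread very unevenly. Gained peaks held 1.35 matches per kilobase and peaks with a counterpart 0.728, yet in the central 200 bp it was in 8.09% of gained peaks and 10.9% of the others. Of the 613 matches in gained peaks, 333 (54.3%) lay in 11 peaks with 10 or more matches each, and 10 of those 11 were farther than 500 bp from a protein-coding 5′ end. The peak at X:2057873-2059161 had 47 matches in 1289 bp and was on all 6 other lists, and that at V:6071629-6072691 had 29 matches in 1063 bp and was on 1.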
